A study of Mus musculus with 4 samples.

Results

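The regions described here are those in which the ChIP-seq signal of histone H3 propionylated at lysine 23 (H3K23) was lower in hearts of mice fed without branched-chain amino acids (BCAA) than in those fed a control diet. This held both after a sham operation and after transverse aortic constriction (TAC), a banding of the aorta that raises the pressure load on the heart. They were chosen from 29210 merged regions by their average signal with 1 added: the log2 ratio of BCAA-free over control diet had to be at most −0.3 in sham hearts and at most −0.3 in TAC hearts. This held for 500 regions (1.71%), which together covered 2975 kb.

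There were 4 libraries, 1 per group, and 3 hearts were pooled for each. The mice were C57Bl/6J males aged 12 weeks, and the groups were sham and TAC on the control diet and sham and TAC on the BCAA-free diet. The control diet held all essential amino acids, with BCAA at the level of chow, and the other diet held no BCAA. Diets began 4 days before surgery and continued until the hearts were taken 1 week after it. With 1 pool per group there was no replicate error and no test could be made, so higher and lower compare libraries, and a change that differs between pools of the same group could not be told from an effect of diet or surgery. The sources used here do not say how the libraries were scaled to each other.

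Histone propionylation is an acyl mark that uses propionyl-CoA as donor, and the breakdown of isoleucine and valine is one source of propionyl-CoA. Acylated histone H3 tails are generally found at promoters and enhancers of active genes. In a whole heart the signal of a locus is summed over cardiomyocytes, endothelial cells, fibroblasts and leukocytes, so that a lower signal from fewer cells of a type and a lower signal per cell cannot be told apart. As a check of the tissue, 33 of 34 sarcomere genes had at least 1 region in the table, against 8 of 18 genes of the liver.

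The promoters of 4 genes of the set are shown first, because they let the base composition of these regions be seen beside that of promoters in general. Their regions are among the 8 with a promoter and above-median signal whose mean diet ratio was lowest. Each line gives the 250 bases before the RefSeq start (GRCm38.p6, the assembly of mm10), 5′ to 3′ on the strand of the gene, and capitals mark matches on either strand to 1 of 7 motifs: the TATA box TATAAA, the CCAAT box, the GC box core GGGCGG, the E-box CACGTG, the ETS-type motif CCGGAAG, the GATA-type motif AGATAA and the AP-1 type motif TGANTCA. The Cd300lf promoter lies at chr11:115133993-115134242 on the minus strand, Cyb5r1 at chr1:134405531-134405780 on the plus strand, Tmem89 at chr9:108914369-108914618 on the plus strand and Cdca8 at chr4:124936918-124937167 on the minus strand.
Cd300lf: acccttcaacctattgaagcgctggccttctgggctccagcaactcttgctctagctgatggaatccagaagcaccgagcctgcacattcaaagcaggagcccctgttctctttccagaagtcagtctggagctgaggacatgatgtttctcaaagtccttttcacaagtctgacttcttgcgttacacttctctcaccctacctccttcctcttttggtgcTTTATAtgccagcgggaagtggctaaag
Cyb5r1: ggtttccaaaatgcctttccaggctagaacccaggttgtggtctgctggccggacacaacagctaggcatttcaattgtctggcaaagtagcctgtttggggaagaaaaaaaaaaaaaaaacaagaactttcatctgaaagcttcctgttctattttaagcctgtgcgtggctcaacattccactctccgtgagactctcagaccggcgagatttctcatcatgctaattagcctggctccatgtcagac
Tmem89: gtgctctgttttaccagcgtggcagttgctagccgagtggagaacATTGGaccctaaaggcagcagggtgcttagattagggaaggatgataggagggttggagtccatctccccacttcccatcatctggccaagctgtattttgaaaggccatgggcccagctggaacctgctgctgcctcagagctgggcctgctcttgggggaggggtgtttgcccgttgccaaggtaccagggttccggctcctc
Cdca8: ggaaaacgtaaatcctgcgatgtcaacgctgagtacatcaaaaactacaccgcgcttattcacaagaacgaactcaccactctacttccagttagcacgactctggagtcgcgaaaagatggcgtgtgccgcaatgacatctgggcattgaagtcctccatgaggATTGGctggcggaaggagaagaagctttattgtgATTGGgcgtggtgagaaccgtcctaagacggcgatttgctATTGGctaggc

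The first of these genes encodes an inhibitory receptor of myeloid cells, Cyb5r1 a cytochrome b5 reductase, Tmem89 a transmembrane protein and Cdca8 the mitotic protein borealin. Cd300lf had 1 match, to TATAAA, Tmem89 had 1 match to CCAAT, Cdca8 had 3 matches to CCAAT and Cyb5r1 had 0 matches. The 250 bases held 4 CpG dinucleotides in Cd300lf, 5 in Cyb5r1, 4 in Tmem89 and 16 in Cdca8. The 107 RefSeq promoters whose start lay in a region of the set had a median of 4.0 CpG and 52.8% G and C, whereas the 16293 promoters in the other regions had 13.0 CpG and 58.4%. All 32851 promoters of the RefSeq table had medians of 6.0 CpG and 52.4%, so that the set was nearer to promoters in general than to those in the other regions. GGGCGG, the core of a GC box, was found in 28.0% of the promoters of the set, in 50.9% of promoters in the other regions and in 32.7% of all promoters of the RefSeq table. CCGGAAG, an ETS-type motif, was found in 4.67%, 11.3% and 6.91%, and CACGTG in 3.74%, 7.55% and 6.02%. The motif AGATAA was found in 13.1%, 6.33% and 9.99%, and CCAAT in 43.0%, 33.1% and 33.8%. TATAAA was found in 10.3%, 7.13% and 12.4%, and TGANTCA, the AP-1 type, in 7.48%, 4.89% and 6.75%. GGGCGG and CCGGAAG were less frequent and AGATAA and CCAAT more frequent in the set than in both comparisons, but some counts are small, with 14 promoters for AGATAA and 5 for CCGGAAG.

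The regions of the set were mostly distal to promoters. The authors annotated a promoter for 88 of the 500 regions (17.6%), against 42.9% of all regions, and a CpG island for 41 (8.20%), against 33.4%. This annotation can count a gene start outside the region. A region of 1400 bases with a promoter had its nearest listed start 7859 bases from its middle. A gene but no promoter was listed for 236 regions (47.2%, against 34.4%), and no gene for 176 (35.2%, against 22.7%). Among regions that listed a gene, the nearest listed start was at a median distance of 28824 bases from the middle of the region, against 7958 bases over all regions, and in 127 of 324 it was more than 50 kb away (39.2%, against 21.6%). The 176 regions with no listed gene lay at a median of 45762 bases from the body of a RefSeq protein-coding gene, close to the 47869 bases of all such regions.

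They were also short and of low signal. The median length was 3800 bases (400 to 95000), against 6400 bases over all regions, and 77 regions (15.4%) were shorter than 2000 bases, against 5.10%. The median of the mean signal over the 4 libraries was 5.82, against 6.86, and the median number of estimated sequence tags was 98.6, against 201. The 799 regions (2.74%) that were higher on the BCAA-free diet by the same threshold in both surgeries had much the same make-up. A promoter was annotated for 21.7% of them, a CpG island for 10.4% and no gene for 39.4%, with a median length of 3400 bases and 82.6 tags. Few promoters, few CpG islands and a low tag number were thus shared by the regions that passed the threshold in either direction. Among regions of at least 100 tags, a promoter was annotated for 21.5% of the set against 49.4% of all, and a CpG island for 11.3% against 40.2%.

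**Figure D1:**
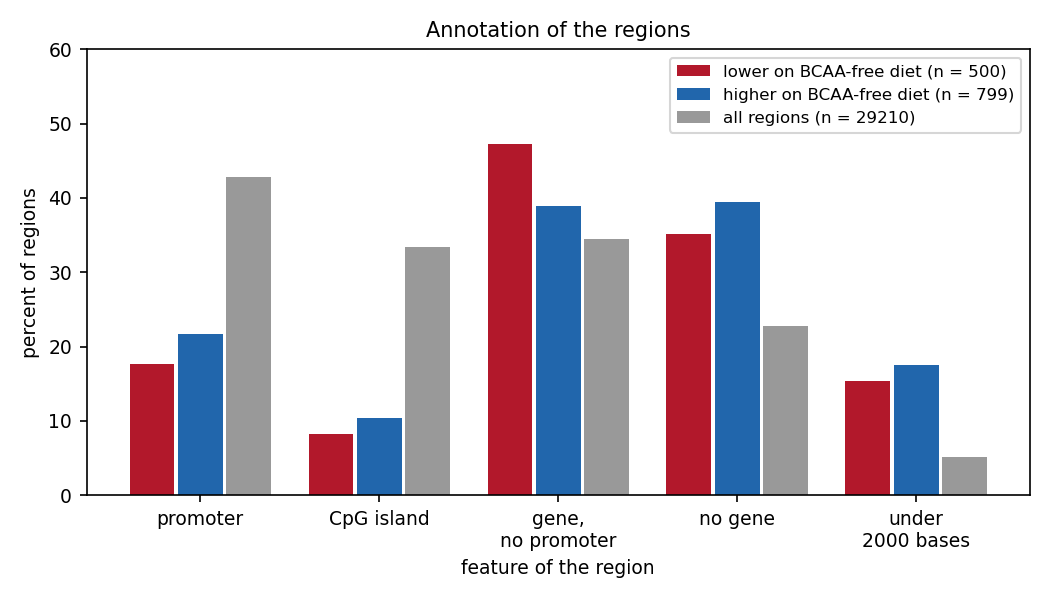
Percent of regions (vertical axis) with each feature (horizontal axis) for the 500 regions lower on the BCAA-free diet in both surgeries, the 799 regions higher in both and all 29210 regions. A promoter was annotated by the authors in 17.6%, 21.7% and 42.9% of them.

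The values that chose the regions are given as a description. The median signal of the set was 7.20 in the control sham library, 6.68 in control TAC, 4.85 in BCAA-free sham and 4.68 in BCAA-free TAC. The diet ratio had a median of −0.45 in sham (lowest −1.67) and −0.41 in TAC (lowest −1.12), while all regions had medians of 0.04 and −0.02. Both BCAA-free signals lay below both control-diet signals in 397 of the 500 regions, which the rule itself favours (12.4% of all regions). In the other regions a surgery difference was large enough for the diets to overlap. The peak height, the highest signal within a region and so part of what chose it, was lower on the BCAA-free diet in both surgeries in 422 regions (84.4%, against 20.3% of all regions).

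Of all regions, 2389 (8.18%) were lower on the BCAA-free diet past 0.3 in sham and 2571 (8.8%) in TAC. The 500 in common, which are the set itself, were 20.9% of the first list and 19.4% of the second. These 2 lists share no library, but the overlap is made of the values of the rule and is given as a description. How far the low tag number of such regions shapes it was not tested. A further 129 regions that were lower in sham were higher in TAC past 0.3 (5.40% of the first list, against 7.12% of all regions). Another 225 that were lower in TAC were higher in sham (8.75% of the second list, against 15.4% of all regions). Counting error was large for a part of the set, by the 95% counting interval of the ratio, which covers counting error only. It lay below 0 in both surgeries in 316 of 500 regions, and in 230 of the 247 with at least 100 tags. Over all regions this held for 4.09%, and the rule itself favours it, since it takes only ratios of at most −0.3. A ratio past 1.5-fold in both surgeries was seen in 25 regions. Just inside the threshold lay regions of Tecpr1 (−0.32 in sham, −0.30 in TAC) and Rapgef1 (−0.35 and −0.30) and one on chromosome 17 with no listed gene (−0.46 and −0.30), and just outside it a region of the histone acetyltransferase gene Kat7 (−0.31 in sham, −0.30 in TAC), one of the phosphatase gene Ptpre (−0.31 and −0.30) and one on chromosome 1 with no listed gene (−0.30 and −0.35).

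**Figure D2:**
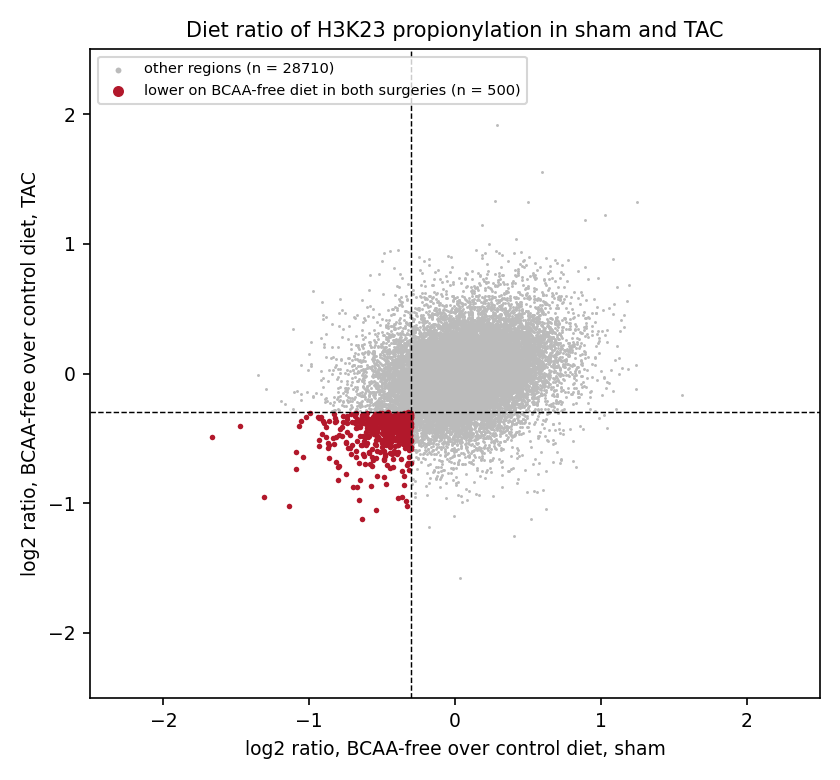
Log2 ratio of BCAA-free over control diet in sham (horizontal axis) and TAC (vertical axis), 1 point per region, with dashed lines at −0.3. The 500 regions of the set fill the lower left corner by construction, with medians of −0.45 and −0.41.

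Peak calls of the authors followed the same order. Of the 500 regions, 403 had a peak call in control sham (80.6%, against 77.1% of all regions), 345 in control TAC (69.0%, against 78.8%), 163 in BCAA-free sham (32.6%, against 82.0%) and 144 in BCAA-free TAC (28.8%, against 78.3%). The calls come from the same libraries as the rule, so these shares follow in part from it and are no separate support. A call in all 4 libraries was made in 107 regions (21.4%, against 61.3% of all regions), and 300 had no call in either BCAA-free library (9.74% of all regions had none). In 71 regions both control-diet libraries and neither BCAA-free library had a call (14.2%, against 1.12%), and in 229 only 1 library had one (45.8%, against 16.6%). A region with no BCAA-free call came into the merged regions through a control-diet library, where the rule requires the higher signal. Such shares therefore describe how the regions were chosen.

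The lowest mean of the 2 diet ratios, a choice made after the values were seen, belonged to the region of 2010300C02Rik and Gm19863, which spans 3400 bases of chromosome 1 (37686200 to 37689599). Its signal was 15.6 in control sham, 8.51 in control TAC, 5.72 in BCAA-free sham and 3.93 in BCAA-free TAC, which gave diet ratios of −1.31 in sham and −0.95 (counting interval −1.32 to −0.58) in TAC. The control sham library stood far above the others, and both BCAA-free libraries were below both control libraries. The next was a region of 2400 bases on chromosome 7 (82203400 to 82205799) with no listed gene, within the body of the RefSeq gene Sh3gl3, with signals of 5.43, 6.77, 1.93 and 2.82 in the same order of libraries.

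Among regions with a promoter and above-median signal, the lowest mean of the 2 diet ratios was found at the start of Oas2, one of the interferon-induced oligoadenylate synthetase genes that make the activator of RNase L. The region (chromosome 5, 120746000 to 120751199), which also lists Oas3, had a signal of 9.59 in control sham, 11.1 in control TAC, 6.38 in BCAA-free sham and 7.49 in BCAA-free TAC. Its diet ratio was −0.52 (−0.79 to −0.26) in sham and −0.51 (−0.76 to −0.26) in TAC. A second region at the start of Oas3 (120774600 to 120781599) had 9.21, 9.52, 6.29 and 7.41, with diet ratios of −0.49 and −0.32. In both regions the diets did not overlap, and both regions of the table that list Oas3 were in the set. On the list of interferon-stimulated genes used here, which does not hold every such gene, these were the only 2 of 70 regions in the set. That is 2.86%, against 1.71% of all regions. On the same list 1 region was higher in both surgeries, and the median diet ratios were 0.10 in sham and −0.07 in TAC.

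At Tamm41, which encodes a mitochondrial enzyme of cardiolipin synthesis, the promoter region of 1800 bases had signals of 10.2, 10.3, 6.44 and 7.53, and diet ratios of −0.60 (−1.04 to −0.15) and −0.41 (−0.83 to 0.02). Its 2 control-diet values were alike and above both BCAA-free values, though the interval in TAC included 0. The region at the start of Cd300lf, whose promoter is shown above and which also lists the vesicle transport gene Rab37, had 7.29, 11.3, 4.66 and 8.25, with diet ratios of −0.55 (−0.86 to −0.24) and −0.42 (−0.67 to −0.16). Here both TAC values were high, and BCAA-free TAC lay above control sham. The region of Dazap1, an RNA-binding protein gene, and the ribosomal protein gene Rps15 had 12.2, 9.16, 8.35 and 6.40 over 11200 bases, with ratios of −0.50 and −0.46.

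The region of Cyb5r1 and the adiponectin receptor gene Adipor1 had signals of 14.3, 15.6, 10.3 and 10.7, and diet ratios of −0.43 (−0.73 to −0.13) and −0.51 (−0.80 to −0.21). That of the anion exchanger gene Slc26a6 and Tmem89 had 9.05, 7.71, 6.18 and 5.54, with ratios of −0.48 and −0.41. In these regions surgery changed the signal less than diet did. A region of 1400 bases 7859 bases from the start of the phosphatase gene Dusp18 had 12.7, 8.18, 8.30 and 6.30, with an interval in TAC that included 0 (−0.33, −0.86 to 0.19). At Cdca8 the signals were 6.69, 9.67, 5.24 and 6.12, and the difference was mainly in TAC (−0.58, −0.95 to −0.22), since the ratio in sham was −0.30 (−0.70 to 0.10).

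The regions of highest signal and the longest regions follow. The highest signal belonged to the region at the start of Tor4a, a torsin family gene, with 7800 bases of chromosome 2 (25193000 to 25200799). It also lists Nrarp, a Notch-regulated ankyrin repeat gene, and Nelfb, a subunit of the negative elongation factor. Its signals were 17.4, 21.6, 12.6 and 16.9, with diet ratios of −0.44 (−0.60 to −0.27) and −0.34 (−0.49 to −0.19), and higher values in TAC on both diets. The region of Rapgef1 (chromosome 2, 29617400 to 29682799), an exchange factor for the small GTPase Rap1, covered 65400 bases with 18.9, 15.2, 14.6 and 12.1, and ratios of −0.35 (−0.40 to −0.29) and −0.30 (−0.36 to −0.24). The longest region of the set, 95000 bases on chromosome 10 (93246000 to 93340999), lists Elk3, an ETS-family transcription factor gene, and the kinase gene Cdk17, with 13.7, 13.2, 10.8 and 10.5 and ratios of −0.32 and −0.31. In this region surgery made almost no difference on either diet.

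A region of 58400 bases with the lens crystallin genes Cryba4 and Crybb1 and the sulfotransferase gene Tpst2 had 16.1, 18.1, 12.3 and 14.0, and ratios of −0.36 and −0.35. Zfyve28, which encodes an endosomal regulator of EGF receptor signalling, had 13.4, 17.6, 9.83 and 13.9 in a region of 19000 bases. A region of 3200 bases on chromosome 13 with no listed gene had 11.7, 17.9, 9.26 and 12.8, and ratios of −0.31 (−0.61 to −0.01) and −0.45 (−0.70 to −0.19). These regions had higher signals in TAC on both diets, and in the last pair BCAA-free TAC exceeded control sham. In all, 7 regions of the set were 30 kb or longer (1.40%, against 5.46% of all regions).

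**Figure D3:**
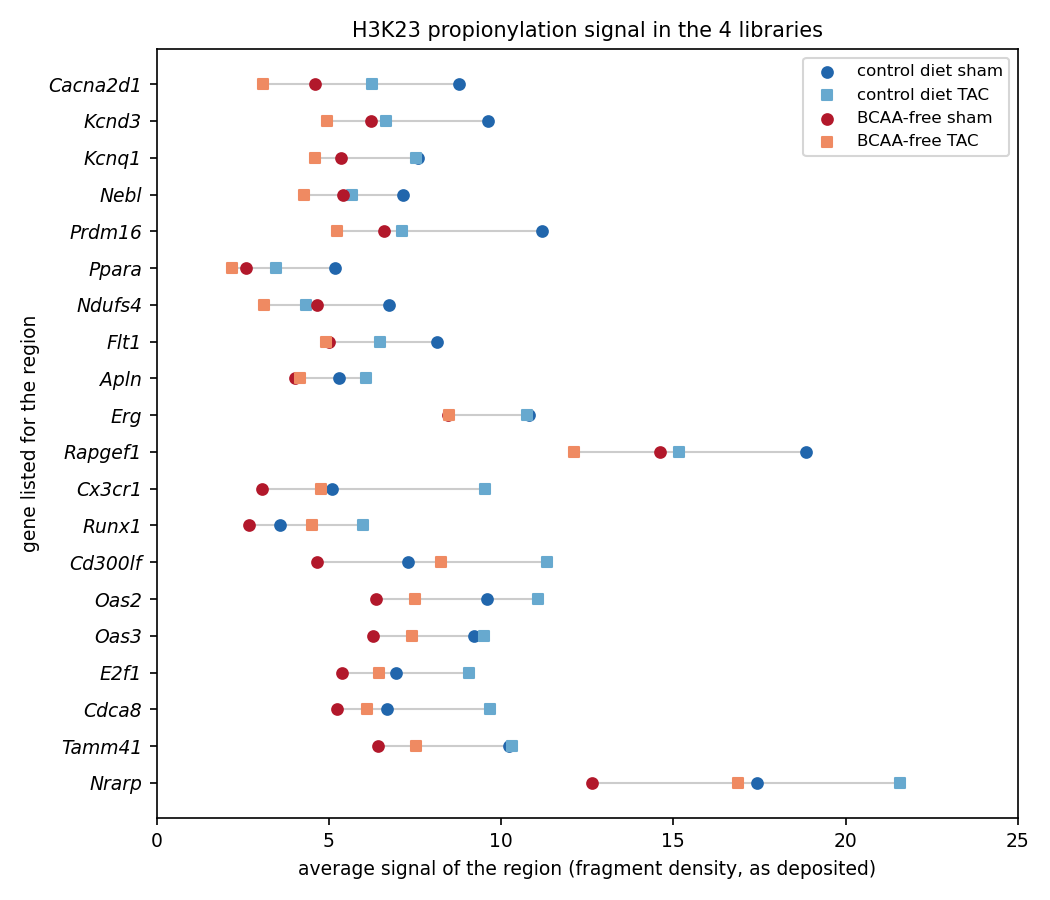
Average signal (horizontal axis, fragment density as deposited) in the 4 libraries for regions of the set that list the genes on the vertical axis. Each gene has 1 value per library and no error, and the blue control-diet symbols lie to the right of the red and orange BCAA-free symbols of the same shape in every row, as the rule requires.

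The regions of cardiomyocyte genes in the set lay mostly within the gene and far from its start, and those named here had their lowest signal in the BCAA-free TAC library. Of 105 regions listing a gene of calcium handling or a cardiac channel, 4 were in the set (3.81%), of 64 sarcomere regions 2 (3.12%), of 42 regions of desmosome and intercalated disc genes 2 (4.76%) and of 66 regions of cardiac transcription factor genes 1 (1.52%), against 1.71% of all regions. These shares rest on 1 to 4 regions each. The median diet ratios of these lists were −0.16, −0.11, −0.10 and −0.12 in sham, below the 0.04 of all regions, and 0.01, 0.05, 0.06 and 0.05 in TAC, above the −0.02 of all regions. A region 120608 bases from the start of Cacna2d1, an auxiliary subunit of calcium channels, had signals of 8.77, 6.26, 4.60 and 3.10 and diet ratios of −0.80 (−1.46 to −0.15) and −0.82 (−1.56 to −0.09), and a second one within 15 kb of it had −0.47 and −0.31. Both are short, at 1000 and 1600 bases, so their intervals are wide.

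The potassium channel genes Kcnd3 and Kcnq1 had 1 region each in the set, within the gene. Kcnd3 had 9.63, 6.67, 6.23 and 4.95, with diet ratios of −0.56 and −0.37, and Kcnq1 had 7.60, 7.53, 5.34 and 4.59, with ratios of −0.44 (−0.76 to −0.12) and −0.61 (−0.94 to −0.28). Of the sarcomere genes, the promoter region of the nebulette gene Nebl had 7.15, 5.66, 5.42 and 4.28 (−0.35 and −0.33). Both of its control-diet values lay above both BCAA-free values, though the counting interval in TAC included 0. A region 186674 bases from the start of Prdm16, a transcription factor gene listed both for heart and fat, had 11.2, 7.12, 6.59 and 5.24 (−0.68 and −0.38).

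Regions of 2 metabolic genes were likewise highest in control sham and lowest in BCAA-free TAC. Ppara, the nuclear receptor that drives fatty acid oxidation, had 5.18, 3.47, 2.60 and 2.20 in a region 26035 bases from its start, with diet ratios of −0.78 (−1.21 to −0.34) and −0.48 (−0.95 to −0.01). Ndufs4, a subunit of respiratory complex I, had 6.76, 4.34, 4.66 and 3.12, with ratios of −0.45 and −0.38. They were the only members among 64 regions of fatty acid oxidation genes (1.56%) and 70 of oxidative phosphorylation genes (1.43%). Both shares are near the 1.71% of all regions. The cadherin gene Cdh2 of the intercalated disc and the TGF-beta effector gene Smad2 had 2 and 1 regions in the set, with diet ratios of −0.40 and −0.32, −0.80 and −0.71, and −0.65 and −0.37. Each of these regions was highest in control sham.

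No region listing a gene of BCAA catabolism or propionyl-CoA metabolism was in the set. None of 48 regions of BCAA catabolism genes, 36 of propionyl-CoA metabolism, 58 of amino acid transport and starvation, 68 of leucine sensing and mTORC1, 56 of the tricarboxylic acid cycle, 63 of glycolysis and 91 of histone acylation enzymes was a member. Together these 7 lists held 411 regions, with median diet ratios of 0.01 in sham and −0.04 in TAC. At the 1.71% of the whole table, the 411 regions together would hold 7.04 members and a single list about 1. With peak height in place of average signal, 4 regions of the leucine sensing list, 3 of glycolysis and 2 of histone acylation enzymes passed the threshold in both surgeries.

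Endothelial genes had 3 of 97 regions in the set (3.09%, against 1.71% of all regions), with list medians of −0.11 in sham and −0.04 in TAC. A region of 55600 bases within Erg (chromosome 16, 95411200 to 95466799), an ETS factor gene of endothelial cells, had 10.8, 10.7, 8.45 and 8.50 and diet ratios of −0.32 (−0.40 to −0.25) and −0.31 (−0.38 to −0.23), with no difference by surgery beyond counting error. Flt1, a receptor for vascular endothelial growth factor, had 8.15, 6.49, 5.01 and 4.92 (−0.60 and −0.34), and the promoter of the peptide hormone gene Apln had 5.31, 6.09, 4.03 and 4.16 (−0.33 and −0.46). For Erg, Flt1 and Apln both control-diet values lay above both BCAA-free values, though the intervals of Flt1 in TAC and Apln in sham included 0.

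Regions of leukocyte and cell cycle genes had their highest signal in control TAC. A region 31583 bases from the start of Cx3cr1, the fractalkine receptor gene of macrophages and monocytes, had 5.08, 9.54, 3.07 and 4.79, with diet ratios of −0.58 (−0.93 to −0.22) and −0.86 (−1.16 to −0.57). Runx1, a transcription factor gene of blood cells, had 3.59, 6.00, 2.70 and 4.50 (−0.31 and −0.35). Both were called as peaks in control TAC alone. The leukocyte list, of which they are 2 of 68 regions (2.94%, against 1.71% of all regions), had median diet ratios of −0.02 in sham and −0.21 in TAC, and its median TAC ratio was 0.54 with the control diet and 0.34 without BCAA. Of the cell cycle list 2 of 56 regions (3.57%) were in the set: the region of the transcription factor gene E2f1 had 6.94, 9.07, 5.38 and 6.46 (−0.32 and −0.43), and that of the cell cycle inhibitor gene Cdkn2a 7.80, 9.47, 6.13 and 7.46 (−0.30 and −0.31). The intervals of the Cdkn2a ratios included 0 in both surgeries, as did that of Runx1 in sham.

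The remaining lists held 1 member or 0. The chloride channel gene Ano1 of the smooth muscle list had 6.33, 6.27, 4.47 and 4.42, the clock gene Npas2 8.63, 7.97, 6.18 and 6.11, and the neuronal tubulin gene Tubb3 6.01, 6.90, 4.35 and 4.40. In each of these regions both control-diet signals lay above both BCAA-free signals, and the counting intervals of the TAC ratios included 0. None of 49 fibroblast regions was in the set and 3 were higher on the BCAA-free diet in both surgeries. Of 123 matrix and TGF-beta regions 1 was in the set and 7 were higher. Over all regions 1.71% were in the set and 2.74% were higher, and whether these small counts differ from those shares was not tested. Over the 31 lists, 14 had 0 regions in the set, 10 had 1 and the largest count was 4, and 26 of 1716 regions listing any of these genes were in the set. That is 1.52%, near the 1.71% of all regions.

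The set can also be read by the response to TAC, which the rule did not use directly. In each region, however, the TAC ratios of the diets differ by exactly as much as the diet ratios of the surgeries do, so choosing regions with similar diet ratios also brings the TAC ratios of the diets close together. Past 0.3, 163 of the 500 regions were lower in TAC on the control diet (32.6%, against 16.2% of all regions) and 97 higher (19.4%, against 17.5%). On the BCAA-free diet 110 were lower (22.0%, against 14.8%) and 102 higher (20.4%, against 8.31%). The medians were −0.09 and −0.03, against 0.04 and −0.06 for all regions. On the control diet the set exceeded all regions mainly on the lower side, and on the BCAA-free diet on both sides. The set also had fewer tags, and the part of this in these shares was not tested. Among regions of at least 100 tags, 20.6% of the set and 13.2% of all regions were lower in TAC on the control diet, and 17.8% and 14.8% higher. On the BCAA-free diet 12.6% and 11.3% were lower, and 18.2% and 6.01% higher, so that here the excess was mainly on the higher side.

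Among regions of the set with a promoter more were higher than lower in TAC, and among those without one more were lower, a difference that was not tested. Of the 88 regions with a promoter, 24 were higher and 14 lower in TAC on the control diet, and 28 were higher and 9 lower on the BCAA-free diet, against 13.7% higher and 8.15% lower, and 6.27% and 6.92%, over all regions with a promoter. Of the 412 without one, 73 were higher and 149 lower on the control diet, and 74 and 101 on the BCAA-free diet. Over all regions without a promoter 20.4% were higher and 22.2% lower on the control diet, and 9.83% and 20.8% on the BCAA-free diet. Those shares of the set were 17.7% and 36.2%, and 18% and 24.5%. In the 11 regions listing a gene of the sarcomere, calcium, intercalated disc, cardiac transcription factor, fatty acid oxidation or oxidative phosphorylation lists, grouped after the values were seen, 8 were lower and 0 higher in TAC on the control diet, while 48.7% of all 411 regions of these lists were lower. In the 6 regions of the leukocyte, interferon and cell cycle lists, 3 were higher and 0 lower, and 46.4% of all 194 regions of those lists were higher.

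The lowest TAC ratios on the control diet among regions of above-median signal were −1.03 in a region listing Gm1715 and −0.93 in one listing Gm5620, both on chromosome 9, and −0.81 for the region of 2010300C02Rik. The highest were 1.00 (0.54 to 1.46) within Cpn1, a carboxypeptidase N subunit gene, 0.69 (0.36 to 1.03) within Fgd3 and 0.68 (0.42 to 0.94) near Trio. The Trio region had signals of 7.89, 13.2, 5.58 and 9.43, and Fgd3 had 6.22, 10.7, 4.22 and 7.17. In both, TAC was above sham on each diet, and the BCAA-free libraries were lower at each surgery.

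**Figure D4:**
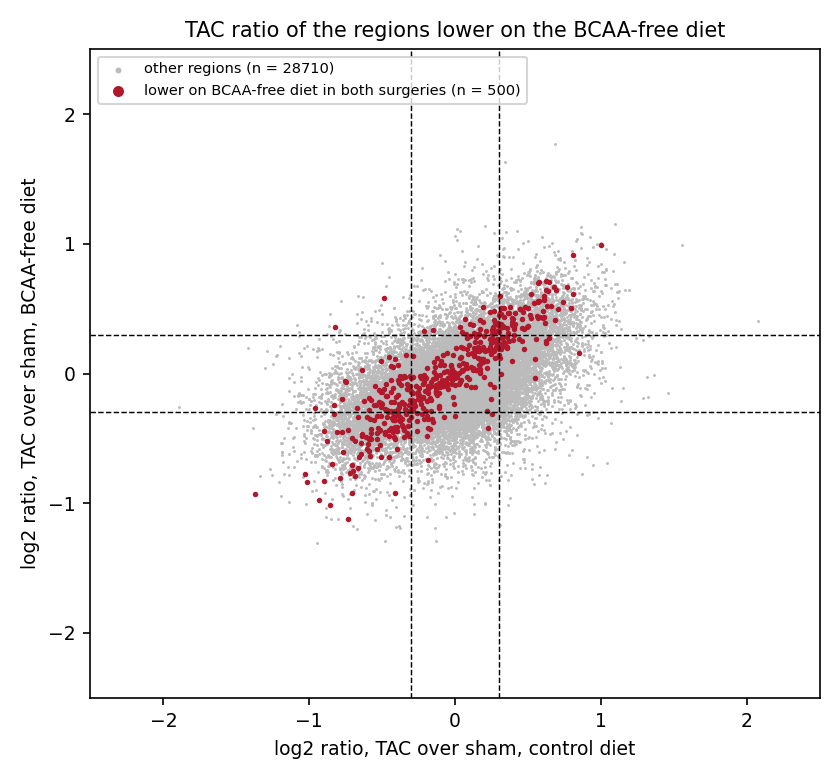
TAC ratio, log2 of TAC over sham, for the control diet (horizontal axis) and the BCAA-free diet (vertical axis), 1 point per region, with dashed lines at −0.3 and 0.3. The 500 regions of the set lie along the diagonal, which follows from the rule, with 93 lower and 69 higher past 0.3 on both diets.

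The diet difference extended weakly beyond the regions themselves. Regions next to a member of the set, themselves not members, had median diet ratios of −0.12 in sham and −0.12 in TAC where the gap was under 10 kb (264 regions), and of −0.04 and −0.09 where it was 10 to 50 kb (361 regions). At 50 kb or more the medians were 0.02 and −0.02 (321 regions), close to the 0.04 and −0.02 of all regions. Of the flanking regions under 10 kb away, 55.7% lay below the median of all regions in both surgeries, against 29.7% over the table. Members made up 6.05% of the flanking regions under 10 kb away and 5.50% of those at 10 to 50 kb. At 50 kb or more they made up 3.02%, still above the 1.71% of all regions. Of the 500, 70 lay within 100 kb of another member and 27 within 20 kb. The same counts were not made for other sets of regions, so whether this spacing is unusual was not tested.

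**Figure D5:**
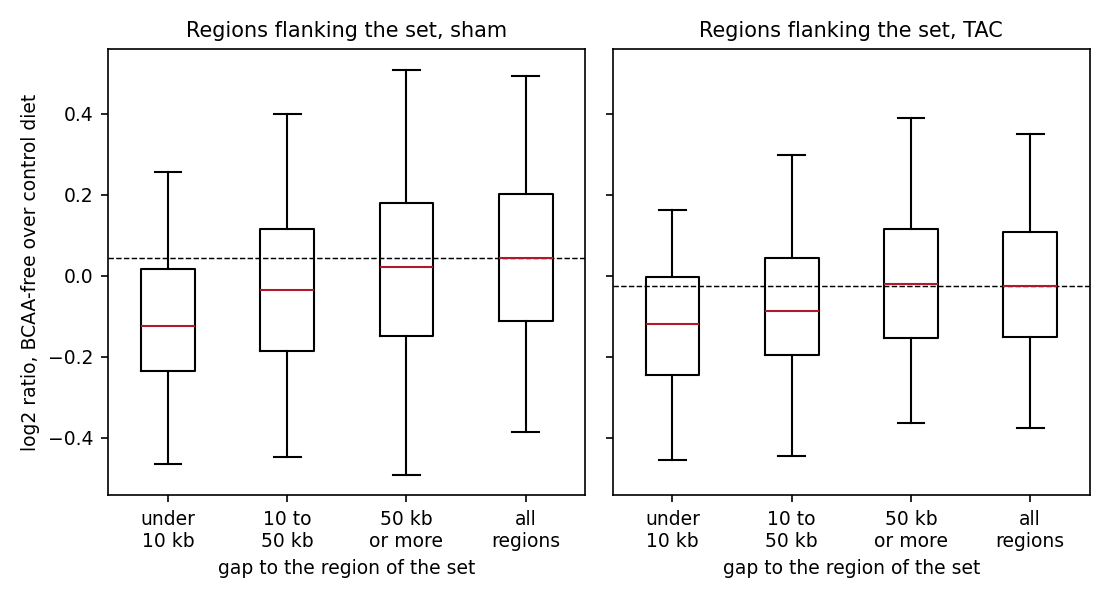
Log2 diet ratio (vertical axis) in sham and TAC of regions next to a member of the set, by the gap between them (horizontal axis), and of all regions; boxes show quartiles, red lines medians, whiskers the central 90% and dashed lines the median of all regions. Medians under 10 kb are −0.12 in both panels.

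Other regions of the same genes were also slightly low, mainly in sham. The set lists 393 gene names, of which 309 have further regions, 916 in all. Their median diet ratios were −0.06 in sham and −0.06 in TAC, against 0.04 and −0.02 over all regions. For 16 genes 2 regions were in the set, among them Thrb, the thyroid hormone receptor beta gene, with 2 of 10 regions and medians of −0.31 in sham and −0.08 in TAC over the other 8. Map2k6, a kinase upstream of p38, had 2 of 5, with −0.43 and −0.10 over the other 3. Lipc, the hepatic lipase gene, had 2 of 8, with −0.22 and −0.26, and the cyclic nucleotide phosphodiesterase gene Pde2a had 2 of 3, with −0.26 and −0.23 for the remaining region. The adhesion gene Cdh13 had 2 of 12, with −0.22 and −0.07, and Auts2, a gene of neuronal development, 2 of 20, with −0.21 and 0.01. These 6 genes were picked after their values were seen. Of the 14 genes with 2 members and other regions, the median of the others was below 0 in sham for 12 and in TAC for 8. Nsmce2 (0.07) and Plekhg1 (0.09) had medians above 0 in sham, and Auts2, Cacna2d1, Cdh2, Rapgef4, Rbfox1 and Tacc2 had medians above 0 in TAC. The median of all regions is itself below 0 in TAC.

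The set was spread over the autosomes and chromosome X. Its share of the regions of a chromosome ran from 1.05% on chromosome 17 to 2.40% on chromosome 13, with 2.37% on chromosome 8 and 1.60% on chromosome X, and 0 of 5 regions on chromosome Y.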

How the data were processed

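H3K23 propionylation was measured by ChIP-seq in 4 heart libraries, 1 per group, each from 3 pooled hearts, grouped by the treatment labels. The submitters' processing notes name BWA, MACS2 and mm10 but give no version or role. The authors deposited 1 table of 29210 merged regions. Per the file headers, its columns for a library are the average signal, the peak height, also a signal, and whether a peak was called (0 or 1). Columns for library pairs, also deposited, hold log2 ratios and the larger tag number. These log2 values were checked to equal the quotient of the signals without a pseudocount, and tags to equal signal times length divided by 224. The same relation gave estimated tags per library, between 11291348 and 11886699 over all regions.

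Ratios are log2 of the quotient of 2 average signals, each with 1 added, without a filter on low values, which understates ratios of low signal. Intervals are 95% from estimated tags and cover counting error only. No test was made. Calls are by size, 0.3 on the log2 scale. The step that selects regions was tried on simulated counts with counting error only and with drops larger than most of those in the set. It does not show how many regions would pass through differences between pools. Of 393 gene names of the set 360, and 15879 of the 17640 over all regions, were matched to RefSeq symbols (GRCm38.p6). Motifs were searched in the 250 bases before each start, on both strands; the sequences come from RefSeq. Python 3.11.15, pandas 2.3.3, scipy 1.17.1 and statsmodels 0.14.6 were used.

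Named regions are the 8 promoter regions of above-median signal with the lowest mean diet ratio, the 5 of highest signal, the 3 longest, up to 3 genes for each of 31 gene lists, the 3 lowest and 3 highest TAC ratios on the control diet among regions of above-median signal, and the 3 on each side of the threshold. The members, the lists and the rule for named regions were chosen with earlier results of these data known. One region that this rule names is not reported here. The lowest regions of all and the grouping of lists were added after the values were seen. The alternatives were peak height, no pseudocount, scaling to the same median, removal of a trend with signal, a minimum of 100 tags, and thresholds of 0.4 and 1.5-fold.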

Additional observations from a re-analysis of the deposited data

Results flagged for a closer look

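In 2 regions of the set the TAC ratio went in opposite directions on the diets, past 0.3 each way, and with 1 library per group the difference was not tested. The first has no listed gene and spans 1200 bases of chromosome 16 (96104200 to 96105399), and its signals were 7.73 in control sham, 3.94 in control TAC, 1.75 in BCAA-free sham and 2.53 in BCAA-free TAC. The TAC ratio was −0.82 with the control diet and 0.36 without BCAA, a difference of 1.18. The other, also with no listed gene, spans 1800 bases of chromosome 8 (35516600 to 35518399), and its signals were 8.02, 5.43, 2.25 and 3.86. The TAC ratio was −0.49 and 0.58, a difference of 1.07. The control sham library was estimated at 41.4 and 64.4 tags in these regions, and the counting interval of the ratio on the BCAA-free diet included 0 in both (−0.45 to 1.17 and −0.03 to 1.20).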

How the results depend on the processing

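No paired analysis was possible because each group has 1 library. The set itself depends on the measure and the threshold. With peak height it held 1233 regions, of which 268 were among the 500, and without a pseudocount 800, which included the 500. It held 247 with at least 100 tags, 175 at a threshold of 0.4 and 25 at 1.5-fold. After scaling to the same median it held 525 regions (435 shared), and after removal of the trend 641 (469 shared). The median TAC ratio on the control diet, −0.09, was 0.00 with peak height, −0.00858 after scaling to the same median, −0.00993 after removal of the trend and −0.18 at 1.5-fold. That on the BCAA-free diet, −0.03, was 0.035 after scaling, 0.00997 with at least 100 tags and −0.093 at 1.5-fold, so its sign is not fixed. The share with a promoter, 17.6%, was 27.9% with peak height, 21.5% with at least 100 tags and 8.0% at 1.5-fold. The share with a CpG island was 16.5% with peak height, 11.3% with at least 100 tags, 5.14% at a threshold of 0.4 and 0% at 1.5-fold. The share with no gene was 28.1% with peak height and 28.0% at 1.5-fold. The median length was 5400 bases with peak height, 6600 with at least 100 tags, 3400 at a threshold of 0.4 and 2400 at 1.5-fold. Under each of these settings promoters and CpG islands stayed below their shares of all regions, 42.9% and 33.4%. The minimum of 100 tags and the stricter thresholds keep a part of the 500 regions, while the other settings change the ratios themselves. Scaling alone moved the median TAC ratio of all regions on the BCAA-free diet from −0.06 to −0.00229. The cause of the differences with peak height was not tested. Counts of the gene lists moved by more than 1.5 times in 73 of 217 cases, as they are small. Depth limits the short regions: their counting intervals often reach 0.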
